A study of Sus scrofa with 74 samples.

Results

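The transcripts described here are those of 10 regulators of muscle cell identity and muscle mass: PAX7, MYF5, MYOD1, MYF6, MYOG, CDH15, MSTN, MEF2A, MEF2C and MEF2D. A probe set, the group of short oligonucleotides that reads a transcript on the array, was taken for a regulator only where the platform annotation gave that gene and no other. Of the 10 genes, 6 were named in this way by 10 of the 24123 probe sets, and the annotation names 6765 genes in all. MSTN, MYF6, MYOD1 and MEF2A had 2 probe sets each, and MYF5 and MEF2D had 1 each. PAX7, MYOG, CDH15 and MEF2C were named by no probe set of the annotation used here, and their transcripts were not analysed.

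RNA came from a back muscle, M. longissimus dorsi, of 74 F2 pigs from a reciprocal cross of the Duroc and Pietrain breeds, which were free of the RYR1 mutation behind malignant hyperthermia and were slaughtered at a mean end weight of 110 kg. Each animal was hybridised to 1 Affymetrix Porcine Genome Array, and the labels make up a single group with no treatment, sex, family or drip loss for the single animal. Many animals are full sibs, so p values that treat animals as independent are too small by an unknown amount. The animal numbers in the labels leave a gap between 33 and 60, and the animals are described as 24 numbered 1 to 33 and 50 numbered 60 to 114, called the blocks. A relation given by 1 value of r has the block means removed, and the r within each block is printed where the blocks are compared. What the gap stands for is not in the labels, so age, slaughter date, processing and other differences between the blocks cannot be told apart.

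The MyoD family of helix-loop-helix factors, MYF5, MYOD1, MYF6 and MYOG, switches on the genes of skeletal muscle: MYF5 and MYOD1 commit precursor cells, MYOG drives their differentiation, and MYF6 (MRF4) is the family member that prevails in adult fibres. The MEF2 factors bind with them to muscle promoters, and calcineurin, calcium-dependent kinases and class II histone deacetylases control their activity. Myostatin, the product of MSTN, is a secreted TGF-beta family protein that restrains muscle growth through activin receptors and SMAD proteins, and PAX7 and CDH15 mark the satellite cells, the stem cells of the fibre.

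Values are linear intensities scaled to a trimmed mean of 500 on each array and taken to log2, and since probe sets differ in brightness, a rank among other probe sets is only a rough guide to whether a transcript is present. The tissue label was checked first: the probe sets of CKM, TTN, NEB, TNNT3, TNNI2, MYBPC1 and RYR1 each had a median above 99% of all probe sets, and that of DMD, the dystrophin gene, above 65.0%. As a guide to what an absent transcript gives, 35 probe sets for 31 genes of other tissues (liver, pancreas, pituitary and others) had a median of 6.04, and 90% of them lay under 8.18. Before scaling, the array level was 87.1 ± 14.9 (SD) in the 24 animals and 130 ± 20.2 in the 50. The log2 ratio of the 3' to the 5' control probe sets, a sign of RNA integrity, was 0.81 ± 0.098 and 0.92 ± 0.116.

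MYF5, the earliest of the family to appear in muscle precursors, lay near the level of transcripts that muscle should lack. Its log2 intensity ran from 3.81 through a median of 6.49 to 8.87 in the 24 animals and from 3.88 through 6.68 to 8.48 in the 50. The blocks overlapped almost fully, and 25 of the 35 probe sets of other tissues had a lower median. How much of its signal is background was not tested.

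MYOD1, which commits cells to the muscle lineage, had both probe sets above most of the panel of other tissues, 32 and 30 of 35 being lower. The brighter one ran from 7.53 through 8.36 to 9.68 in the 24 animals and from 7.52 through 8.56 to 9.59 in the 50. The dimmer one ran from 3.30 through 7.55 to 9.04 and from 3.91 through 7.58 to 9.28. Neither separated the blocks, and the lowest values of the dimmer one came from 1 animal in each block. The probe sets followed each other at r = 0.75 in the 24 animals and 0.76 in the 50. The spread of MYOD1 between animals was wide: within blocks the SD of the brighter probe set exceeded that of 87.7% of probe sets of like level, and that of the dimmer one 97.2%.

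MYF6, the form of adult fibres, was read brightly by 1 probe set and dimly by the other. The bright one ran from 11.63 through 12.65 to 13.62 in the 24 animals and from 11.35 through 12.75 to 13.65 in the 50, above all 35 probe sets of the panel. The dim one had a mean of 4.97 ± 1.62 (SD, n = 24) and 5.68 ± 1.21 (SD, n = 50), with 17 of the 35 panel probe sets lower. Only the bright probe set is used for MYF6 below, since the other correlated with it at r = 0.14 and 0.16 and 0 of 23998 probe sets were called with it by limma (963 at an unadjusted p under 0.05).

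MSTN was low but variable. The brighter probe set, called the first, ran from 6.14 through 8.08 to 9.48 in the 24 animals and from 5.90 through 7.27 to 9.30 in the 50, and the second ran from 5.52 through 8.39 to 9.74 and from 5.42 through 7.08 to 9.32. Both were shifted upwards in the 24 animals with wide overlap, and 29 and 28 of the 35 panel probe sets lay lower. They followed each other closely, at r = 0.90 and 0.81, and 86.1% and 89.4% of probe sets of like level had a smaller within-block SD.

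Of the MEF2 genes, MEF2A was read by its brighter probe set, called the first, from 9.93 through 11.13 to 11.46 in the 24 animals and from 9.46 through 10.55 to 11.54 in the 50. Its second probe set ran from 9.19 through 10.14 to 10.86 and from 8.95 through 9.53 to 10.58. Both were higher in the middle of the 24 animals than of the 50, but they agreed poorly within the blocks, at r = 0.33 in the 24 animals and 0.64 in the 50. MEF2D ran from 11.04 through 11.63 to 12.02 and from 11.07 through 11.75 to 12.47, the narrowest of the regulators, with a within-block SD above only 39.0% of probe sets of like level.

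**Figure D1:**
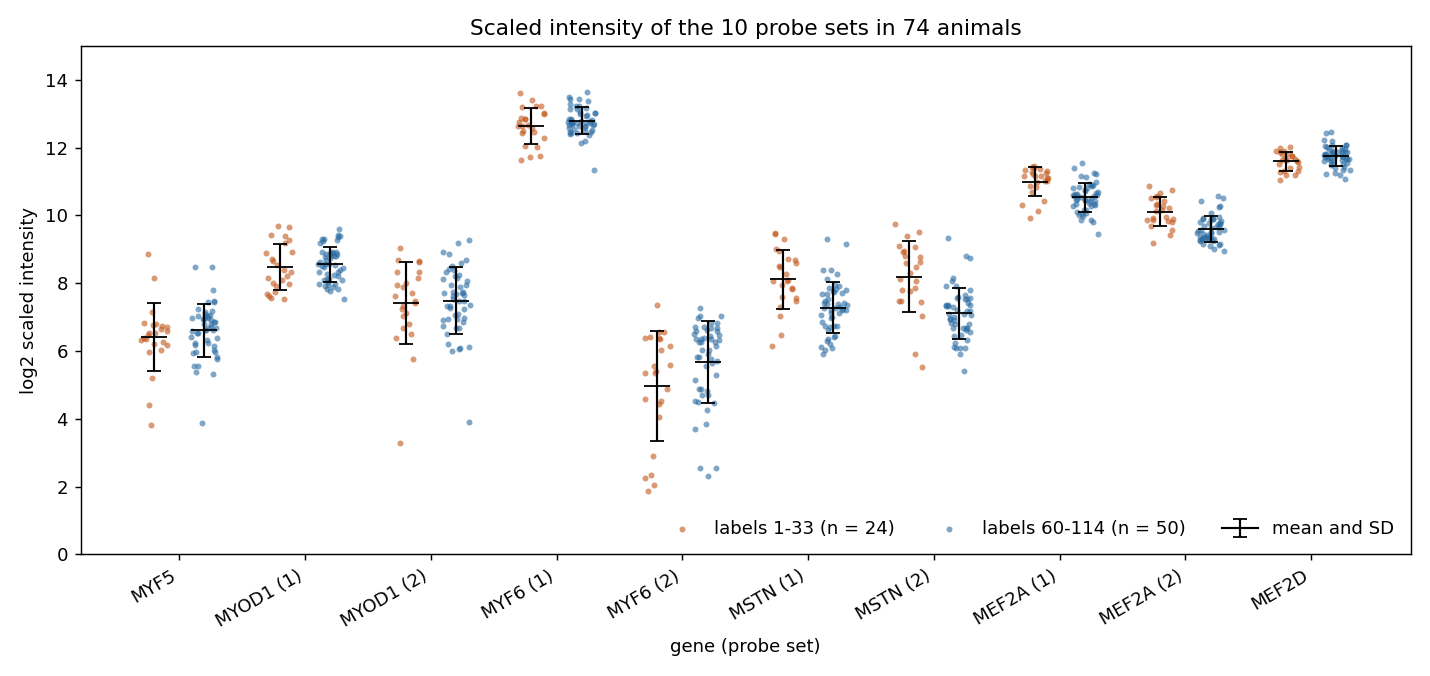
Log2 scaled intensity (y axis) of each of the 10 probe sets (x axis) in the 24 animals numbered 1 to 33 and the 50 numbered 60 to 114; points are animals, bars the mean and SD. The numbers in brackets give the brighter (1) and dimmer (2) probe set of a gene; both MSTN and both MEF2A probe sets sit higher in the 24 animals, while MYF5, MYOD1, the bright MYF6 probe set and MEF2D overlap.

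Between the blocks, MSTN and MEF2A differed in the scaled values, each by both of its probe sets, and the factors of the MyoD family did not pass the test there. MSTN was 1.80-fold higher in the 24 animals by the first probe set (log2 difference 0.84, SE 0.19, limma adjusted p = 0.000134) and 2.12-fold by the second (1.08, SE 0.21, adjusted p = 8.72e-06). MEF2A was 1.38-fold (0.46, SE 0.10, adjusted p = 0.000118) and 1.43-fold higher (0.51, SE 0.10, adjusted p = 6.94e-06). The differences of the other probe sets were -0.20 for MYF5, -0.08 and -0.07 for MYOD1, -0.15 and -0.71 for MYF6 and -0.15 for MEF2D, with adjusted p values of 0.0706 or more.

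These 4 of 10 probe sets stand against 14.0% of all 23999 tested probe sets that were higher in the 24 animals, 30.7% that were lower and 44.8% in either direction. The blocks thus differed widely, and the median over all probe sets was itself -0.15. Relative to that median, MSTN was higher by 1.00 and 1.24 and MEF2A by 0.62 and 0.67, while MYF5 (-0.05), MYOD1 (0.07 and 0.08), bright MYF6 (0.00) and MEF2D (0.00) lay at it. In the values as deposited, with no scaling, the median of all probe sets was -0.71 and MEF2A reversed to -0.12 and -0.07, neither called, and MSTN was 0.26 (adjusted p = 0.256) and 0.50 (adjusted p = 0.0451). As deposited, MYF5 (-0.79, adjusted p = 0.00122), MYOD1 (-0.67 and -0.66, adjusted p = 1.54e-05 and 0.0151), MYF6 (-0.74 and -1.22, adjusted p = 7.48e-09 and 0.000504) and MEF2D (-0.74, adjusted p = 1.04e-13) were all called lower. Relative to the median the deposited values gave 0.97 and 1.21 for MSTN and 0.58 and 0.64 for MEF2A.

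**Figure D2:**
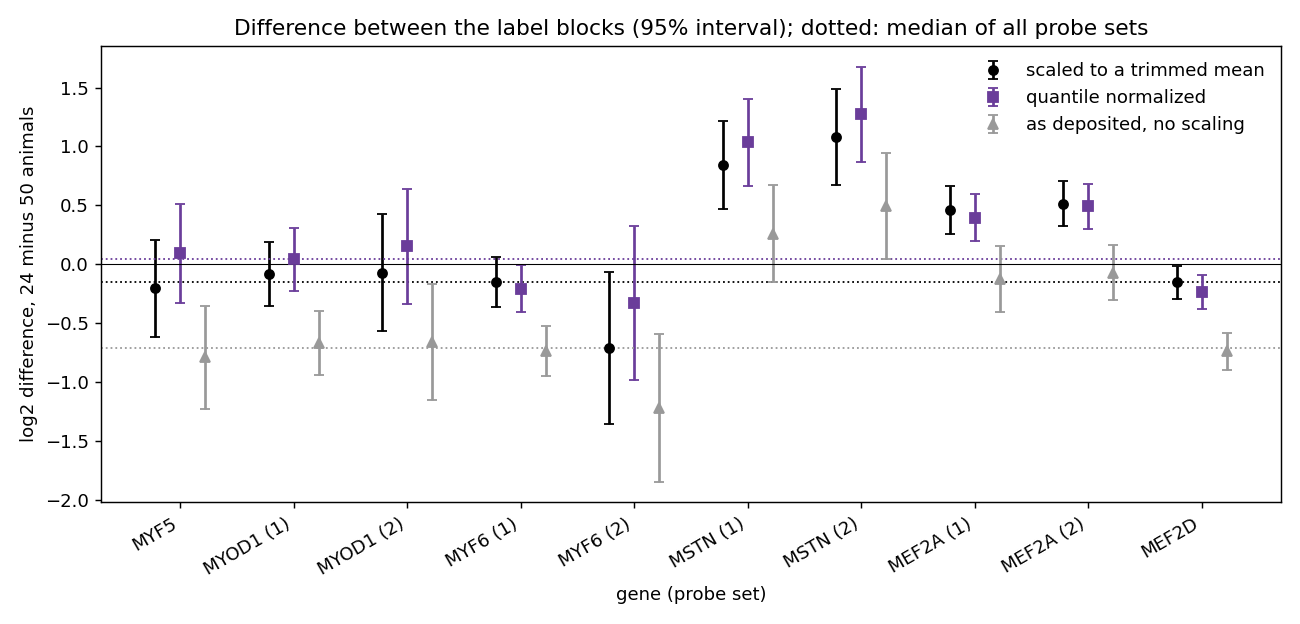
Log2 difference of the 24 minus the 50 animals (y axis) for each probe set (x axis) under 3 scalings, with 95% intervals; dotted lines give the median of all probe sets under the same scaling. Scaled or quantile normalized, MSTN and MEF2A lie above 0, and as deposited every probe set shifts down together with the dotted line.

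Quantile normalization kept MSTN (1.04 and 1.28) and MEF2A (0.40 and 0.49) higher and also called MEF2D, at -0.24 (adjusted p = 0.00603). Of 34 probe sets for 19 other genes of the myostatin pathway, the 24 animals had 4 higher and 10 lower, and of 25 for regulators of MEF2 they had 6 higher and 9 lower, beside 14.0% and 30.7% of all probe sets.

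Within blocks, most pairs of regulators were not called, which does not show that they varied independently. Of the 15 pairs of genes, each taken by its brighter probe set, MSTN with MEF2A alone passed in both fits across all probe sets, that is, with either gene as the predictor. Its r was 0.45 with block means removed (Spearman's rho 0.50, permutation p = 8e-05 and 2e-05), 0.53 in the 24 animals (permutation p = 0.0080) and 0.42 in the 50 (permutation p = 0.0023), and limma's adjusted p was 0.000718 with MSTN and 0.000281 with MEF2A as the predictor. Among all probe sets, 17.1% were called with MSTN and 32.0% with MEF2A, so a call with either was common. Without the 2 animals farthest from the block median, r was 0.65 in the 24 animals and 0.33 in the 50.

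The relation of MSTN with MEF2A rested on 1 of the MEF2A probe sets. The second MSTN probe set gave r = 0.52 with the first MEF2A probe set, but the second MEF2A probe set gave 0.11 and 0.13 with those of MSTN. The first MEF2A probe set also moved with the array level before scaling (r = 0.60, adjusted p = 4.0e-07) and with the first principal component of the 12000 brighter probe sets (r = -0.82), which held 15.1% of their variance. With that component, the second MEF2A probe set had r = -0.25 and the MSTN probe sets -0.58 and -0.62. With the component as a further term the r of MSTN with MEF2A was -0.05. What the component stands for was not tested.

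**Figure D3:**
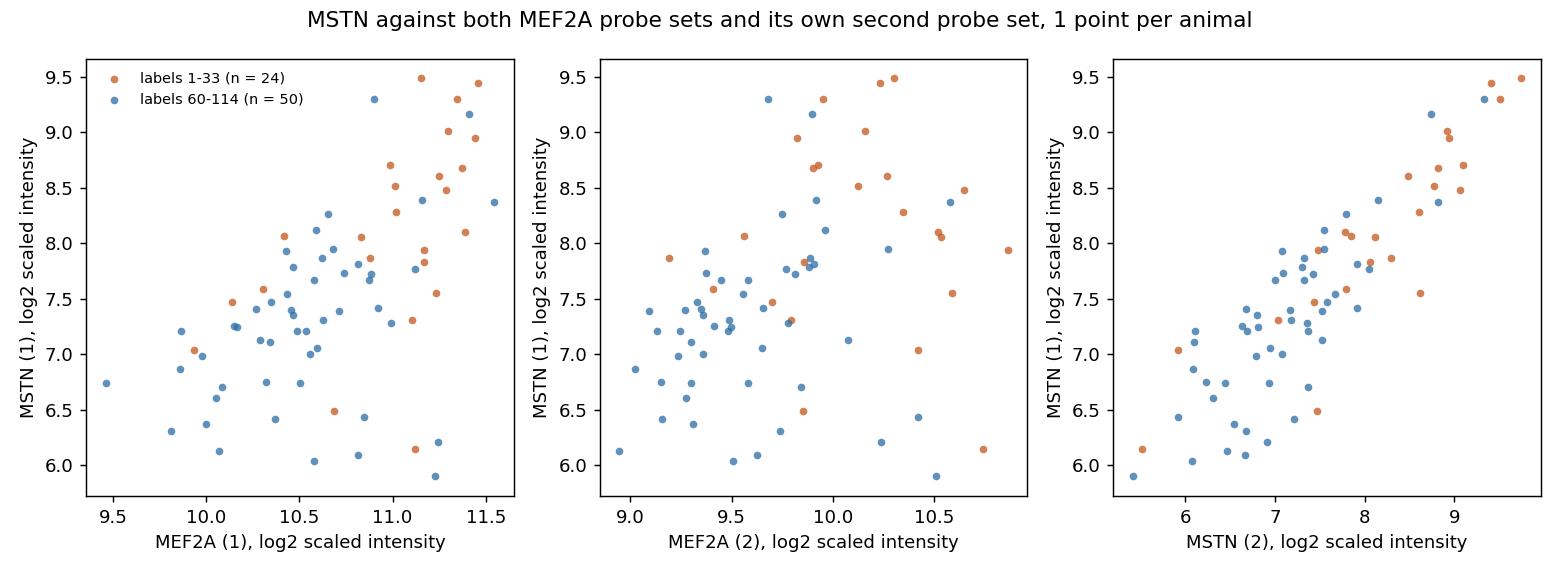
Log2 scaled intensity of the first MSTN probe set (y axes) against the first and the second MEF2A probe set and the second MSTN probe set (x axes), 1 point per animal, coloured by block. MSTN rises with the first MEF2A probe set (r = 0.45 with block means removed), scatters against the second (0.11) and follows its own second probe set (0.84).

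MEF2A and MEF2D, factors that bind the same DNA element, ran against each other at r = -0.35 (rho = -0.25, permutation p = 0.0024 and 0.035), with -0.24 in the 24 animals and -0.40 in the 50. The adjusted p was 0.00943 with MEF2A as the predictor and 0.0536 with MEF2D, and in the values as deposited the sign turned to 0.29 (adjusted p = 0.0425, the larger of both fits). MYOD1 and MEF2A had r = -0.31 (rho = -0.25, permutation p = 0.0085 and 0.029), with adjusted p values of 0.125 and 0.0251, and 0.03 as deposited.

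The factors of the MyoD family did not follow one another as a group. MYF5 and MYF6, neighbours on chromosome 5 of the reference assembly with 0 annotated genes between them, had r = 0.29 (permutation p = 0.019) but rho = 0.16 (permutation p = 0.18), and no fit called the pair (adjusted p = 0.206 and 0.128). In the 50 animals their r of 0.41 fell to 0.11 without the 2 animals farthest from the median of MYF5, so it rests on those animals. MYF5 with the first MYOD1 probe set had r = 0.21 and with the second 0.42, which passed with MYF5 as the predictor (adjusted p = 0.0178) and missed with MYOD1 (adjusted p = 0.0735). The same animal in each block was lowest in both MYF5 and the second MYOD1 probe set: 24 (3.81 and 3.30) and 114 (3.88 and 3.91). The r of 0.42 was not tested without them. With the first MYOD1 probe set, leaving out the 2 animals farthest in MYF5 took r from 0.22 to 0.01 in the 24 animals and from 0.19 to 0.12 in the 50. MYF5 and the second MSTN probe set ran against each other at -0.40 (adjusted p = 0.0365 and 0.00417), while the first MSTN probe set gave -0.23 and was not called. Without the 2 animals farthest from the median of MYF5, the first gave 0.02 in the 24 animals (from -0.25) and -0.17 in the 50 (from -0.21). For the second this was not tested. It read 8.61 and 8.81 in animals 24 and 114, lowest in MYF5, and 5.52 and 7.32 in animals 26 and 69, highest in MYF5.

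MYOD1 and MYF6 were opposed in the 24 animals, at r = -0.51 (rho = -0.52, permutation p = 0.012 and 0.010), and had r = 0.03 in the 50 (permutation p = 0.86). The difference between the blocks did not pass (adjusted p = 0.974 and 0.397), and no pair of regulators had a called difference. The other 8 pairs of brighter probe sets had r between -0.20 and 0.22, and none was called. Among them, MYF5 with MEF2D had rho = -0.29 (permutation p = 0.014). MYF6 with MSTN had r = -0.34 in the 50 animals (permutation p = 0.015) and 0.003 in the 24.

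**Figure D4:**
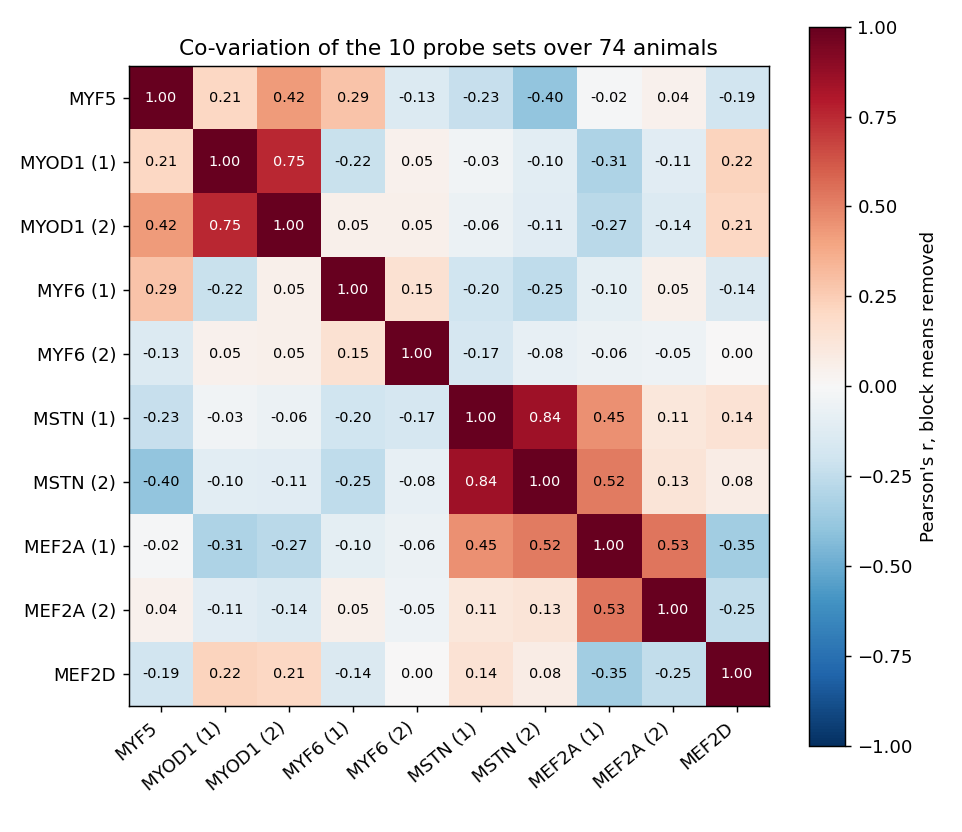
Pearson's r over 74 animals, block means removed, for each pair of the 10 probe sets (both axes list the probe sets; colour and printed values give r). Probe sets of MYOD1 (0.75) and MSTN (0.84) pair closely and those of MYF6 (0.15) do not; between genes the largest values are 0.52 and 0.45, of MSTN with the first MEF2A probe set.

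Each regulator was then set against all other probe sets, to see which transcripts shared its pattern. For MYF5, 1.30% of 23998 probe sets were called, 205 rising and 108 falling with it. The most like were PEG10, an imprinted gene derived from a retrotransposon (r = 0.61), LMCD1, a LIM domain protein of muscle (0.60), and DNAJA4, a co-chaperone of HSP70 (0.58). The most opposed was CD93, a receptor of endothelium and myeloid cells (-0.51). Other probe sets were at 0.09 and 0.13 for PEG10, -0.21 for DNAJA4 and -0.24 for CD93, none of them called. That of LMCD1 was called at 0.60.

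MYF5 rose with several genes of developing or slow muscle. Of 9 probe sets for fusion genes and developmental sarcomere proteins, 2 rose, beside 0.854% of all probe sets: those of ACTC1, cardiac actin of embryonic muscle (r = 0.57, adjusted p = 6.88e-05), and TNNT2, cardiac troponin T (0.56, adjusted p = 0.000138). Of 17 probe sets for slow fibres, 3 rose: CASQ2 (0.53), TNNC1 (0.42) and TNNI1 (0.39), and none fell. TNNC1 and TNNI1 had r of 0.06 and 0.08 in the 24 animals against 0.60 and 0.54 in the 50, differences that were not called (adjusted p = 0.889). Of 24 probe sets for muscle genes reported as MEF2 targets, 3 rose, led by ANKRD1, a stress-induced ankyrin repeat protein (0.53).

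Of 24 probe sets for satellite cell genes and their regulators, 2 rose with MYF5: SDC4, a surface proteoglycan of satellite cells (r = 0.46), and DES, the intermediate filament desmin (0.41). The median r of the list was 0.06, beside -0.02 over all probe sets. A macrophage receptor, CD163, rose too (0.44, 1 of 13 leukocyte probe sets), and of the 23 endothelial probe sets 1 of the 3 for TEK rose (0.40). The summed level of the leukocyte list ran from 9.88 to 11.80 in the 24 animals and from 10.29 to 11.95 in the 50, and the part of such cells in these relations was not tested.

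For MYOD1, 0.954% of probe sets were called, 139 rising and 90 falling. The most like were XPC, which recognises DNA damage (r = 0.52), PLOD1, a collagen lysyl hydroxylase (0.51), and IGF2, a growth factor of muscle (0.51, adjusted p = 0.0101). The most opposed was NDUFC1, a subunit of respiratory complex I (-0.48). By the second MYOD1 probe set these were 0.34, 0.47, 0.41 and -0.35, of which PLOD1 was called. With the first, another PLOD1 probe set was at 0.29 and not called, and 6 of 13 IGF2 probe sets were called.

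ACTC1 again rose with MYOD1, at r = 0.43 by the first (adjusted p = 0.0288) and 0.45 by the second probe set (adjusted p = 0.0267). It was the only call among 9 fusion and developmental probe sets, and THY1, a surface protein of connective tissue cells, was the only one of 13 fibroblast probe sets (0.40). Of 24 satellite cell, 15 partner and inhibitor and 24 MEF2 target probe sets, limma called 0 with MYOD1 (9, 2 and 1 at an unadjusted p under 0.05). The calls of MYOD1 changed with the setting: 229 probe sets were called, 4 with terms for RNA integrity and array level, and without the 2 animals of the most extreme array level 54.

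For MYF6, 5.35% of probe sets were called, 476 rising and 809 falling. The most like were ABRA, an actin-binding protein of striated muscle (r = 0.65), XIRP1, the actin-binding protein Xin (0.64), and HSPB8, a small heat shock protein of the Z-disc (0.63), with adjusted p values of 2.56e-06 or less. The most opposed was LYST, a regulator of lysosomes (-0.64, with r = -0.61 and rho = -0.44 in the 50). Its other probe set was at -0.008 and not called. In the 24 animals ABRA, XIRP1 and HSPB8 had r of 0.78, 0.73 and 0.82, and in the 50 they had 0.54, 0.58 and 0.60. Their rho in the 50 was lower, at 0.48, 0.47 and 0.47. Animal 114 had the lowest MYF6 value of all (11.35) and the highest value of the first MEF2A probe set (11.54). These relations were not tested without it.

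Of 24 probe sets for reported MEF2 targets, 8 rose and 1 fell, beside 1.98% and 3.37% of all probe sets, with a median r of 0.21 beside -0.02 over all. Besides XIRP1 these included ITGB1BP2, the muscle chaperone melusin (0.49), MYL2, the slow myosin regulatory light chain (0.41), and SMPX, a small protein of the costamere (0.41). In the 50 animals ITGB1BP2 and SMPX had r of 0.51 and 0.41 but rho of 0.27 and 0.29. MYL2 had r = 0.12 in the 24 animals and 0.57 in the 50 (rho = -0.04 and 0.26), and the difference did not pass (adjusted p = 0.281). Of the fast fibre list 1 of 12 probe sets rose, and of the 9 for skeletal muscle identity limma called 0 (3 at an unadjusted p under 0.05). RCAN1, an inhibitor of calcineurin induced by it, rose (0.55, adjusted p = 0.000118) and 1 of 3 probe sets of PPP3CB, a catalytic subunit of calcineurin, fell (-0.47), the others being at 0.09 and 0.01. In the myostatin pathway, TCAP, a Z-disc protein that binds myostatin, and SMAD3 rose (0.44 and 0.41), and FST, the inhibitor follistatin, fell (-0.42), 3 calls among 34 probe sets.

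Fat cell markers ran against MYF6. Of 10 adipocyte probe sets, 5 fell and none rose, among them PPARG, the master regulator of fat cells (r = -0.43), FABP4 (-0.41), ADIPOQ (-0.38) and LEP (-0.36), with a median r of -0.30. Their r was -0.69, -0.61, -0.57 and -0.50 in the 24 animals and -0.25, -0.26, -0.26 and -0.22 in the 50, and these differences did not pass (adjusted p = 0.598 or more). The summed level of the adipocyte markers ran from 12.45 to 16.19 in the 24 animals and from 12.30 to 15.76 in the 50. Its part in the relations of MYF6 was not tested, and in whole muscle fewer fibres and less RNA per fibre cannot be told apart. Of 24 satellite cell probe sets, 1 rose and 1 fell with MYF6, beside 1.98% and 3.37% of all. DES rose (0.39), and VCAM1, an adhesion molecule of satellite cells and vessels, fell (-0.45, with -0.85 in the 24 animals and -0.20 in the 50). CHRNA1, the acetylcholine receptor subunit of the synapse, fell too (-0.34, with -0.56 in the 24 animals and -0.15 in the 50). In the 50 animals rho was 0.03 for VCAM1 and 0.07 for CHRNA1. Neither difference between the blocks passed (limma adjusted p = 0.364 and 0.507).

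For MSTN, 17.1% of probe sets were called, 2241 rising and 1862 falling. The most like were PCYOX1, a prenylcysteine oxidase (r = 0.72), PPP1R2, an inhibitor of protein phosphatase 1 (0.71), and DCAF10, a substrate receptor of a ubiquitin ligase (0.68). The most opposed was HSPB7, a small heat shock protein of muscle (-0.67). The second MSTN probe set gave 0.73, 0.76, 0.76 and -0.73 for these 4, all called.

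Along the myostatin pathway, 3 of 34 probe sets rose and 6 fell with MSTN, beside 9.34% and 7.76% of all probe sets, and the median r was -0.10. The share that rose was thus close to that of all probe sets. SMAD4, the common partner of the receptor SMADs, rose (r = 0.55, adjusted p = 1.74e-05). TGFBR1, a type I receptor, rose by 1 probe set (0.39), and its others were at 0.06 and -0.15 and not called. TGFB1, the related ligand (-0.49), and FBXO32, the ubiquitin ligase atrogin-1 of muscle wasting (-0.42), fell. The 4 called probe sets of SMAD4, TGFBR1, TGFB1 and FBXO32 were called by the second MSTN probe set too, at 0.57, 0.48, -0.56 and -0.46.

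Of the 25 probe sets for regulators of MEF2, 6 rose and 2 fell with MSTN, beside 9.34% and 7.76% of all probe sets. Those that rose read only PPP3CB (r = 0.58 and 0.55 by 2 of its probe sets), PPP3CA (0.54, 0.50 and 0.49) and NRBF2 (0.44). PPP3CB and PPP3CA are calcineurin subunits, and NRBF2 is a nuclear receptor binding factor listed there. The 14-3-3 protein YWHAB fell (-0.45). The PPP3CB probe set that fell with MYF6 was not among those that rose and had r = -0.06 with MSTN. Among reported MEF2 targets the leiomodin LMOD3 (0.51) and KLHL41 (0.40), both of the thin filament, rose, while HSPB7 and XIRP1 (-0.31) fell. The endothelial genes ENG, VWF and FLT1 fell (-0.50, -0.38 and -0.33, 3 of 23 probe sets, beside 7.76% of all). The second MSTN probe set called ENG and VWF but not FLT1 (adjusted p = 0.088). The other probe sets of VWF (-0.16 and -0.15) and FLT1 (-0.07 and -0.0007) were not called with the first. The endothelial list had a summed level from 12.81 to 13.48 in the 24 animals and from 12.12 to 13.46 in the 50, and the part of such cells was not tested.

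For MEF2A, 32.0% of probe sets were called with the first probe set, 3471 rising and 4218 falling, and 571 and 413 with the second. The most like to the first were METAP2, a methionine aminopeptidase (r = 0.86), UBXN4, a protein of endoplasmic reticulum degradation (0.84), and MED4, a subunit of Mediator (0.82), and the most opposed was ST5 (-0.75). The second probe set gave 0.49, 0.42, 0.29 and -0.21, of which METAP2 and UBXN4 were called.

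The same held for muscle genes. Of 12 probe sets for fast fibres, 10 fell with the first MEF2A probe set (median r -0.52, beside -0.08 over all, and 17.6% of all probe sets falling). With the second limma called 0 of them (4 at an unadjusted p under 0.05). TNNT3 (-0.61), MYLPF (-0.59) and MYL1 (-0.58) turned to 0.25, 0.45 and 0.58 in the values as deposited, and MYL1 to 0.32 after quantile normalization, while ATP2A1, the fast calcium pump, was -0.59 and kept its sign. CKM, a MEF2 target that makes muscle creatine kinase, was -0.60 and 0.35 as deposited. So the direction of TNNT3, MYLPF, MYL1 and CKM against MEF2A depended on the scaling. A fall with the first MEF2A probe set was common, at 17.6% of all probe sets. Of 17 probe sets for slow fibres, 4 fell with it and none rose (median r -0.12, beside -0.08 over all). The share of slow fibre probe sets that fell was thus near that of all probe sets. With the second MEF2A probe set, 1 of the 17 fell. Of the 4 called MEF2 targets of largest absolute r, CKM alone fell. LMOD3 (0.61), XIRP2 (0.60) and KLHL41 (0.58) rose with the first MEF2A probe set, and by the second they were 0.25, 0.27 and 0.17 with no call.

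Of the 25 probe sets for MEF2 regulators, 7 rose and 4 fell with the first MEF2A probe set, beside 14.5% and 17.6% of all probe sets, and 1 rose and 1 fell with the second. PPP3CA rose with both MEF2A probe sets (r = 0.59 and 0.38, adjusted p = 4.26e-07 and 0.0258). YWHAE (-0.51) and CAMK2B (-0.47) fell by the first, were -0.34 and -0.12 by the second with no call, and reversed to 0.26 each as deposited. Of the inhibitors of the MyoD family, ID1, which binds E proteins, fell with both MEF2A probe sets (-0.58 and -0.37, adjusted p = 5.49e-07 and 0.0299), and ID3 with the first alone (-0.47, and 0.06 as deposited). Of the 34 probe sets of the myostatin pathway, 2 rose with the first MEF2A probe set, TGFBR1 (0.70) and SMAD4 (0.68), and 6 fell, among them ACVR1B, an activin receptor (-0.50, and 0.10 as deposited), and TGFB1 (-0.48). These shares were close to or below those of all probe sets, and the second MEF2A probe set called none of these 4. The other TGFBR1 probe sets were at -0.07 and -0.14 with the first MEF2A probe set and were not called. TGFBR1, SMAD4 and TGFB1 are also pathway genes named with MSTN, and both predictors correlated with the principal component given above. Of 23 endothelial probe sets, 11 fell with the first MEF2A probe set, beside 17.6% of all, and limma called 0 with the second (6 at an unadjusted p under 0.05).

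For MEF2D, 3.26% of probe sets were called, 483 rising and 299 falling. The most like were CAMSAP1, which binds microtubule ends (r = 0.58), DCAF7, a scaffold protein (0.57), and THAP11, a zinc finger factor (0.55). Other THAP11 probe sets were at 0.42, called, and -0.01, not called. The most opposed was CSPP1, a spindle protein (-0.55). With MEF2D, 3 of 12 fast fibre probe sets rose, both of ATP2A1 (0.42 and 0.35) and that of TNNI2 (0.39), and none fell. The median r of the list was 0.32 beside 0.02 over all, with 2.01% of all probe sets rising and 1.25% falling. TTN, the giant titin, rose by 1 probe set (0.42), and its other was at 0.22 and not called. CAMK2B (0.41) and YWHAE (0.47) rose with MEF2D, and RCAN1 fell (-0.35). With terms for RNA integrity and array level, 21 probe sets were called with MEF2D, beside 782 without them.

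**Figure D5:**
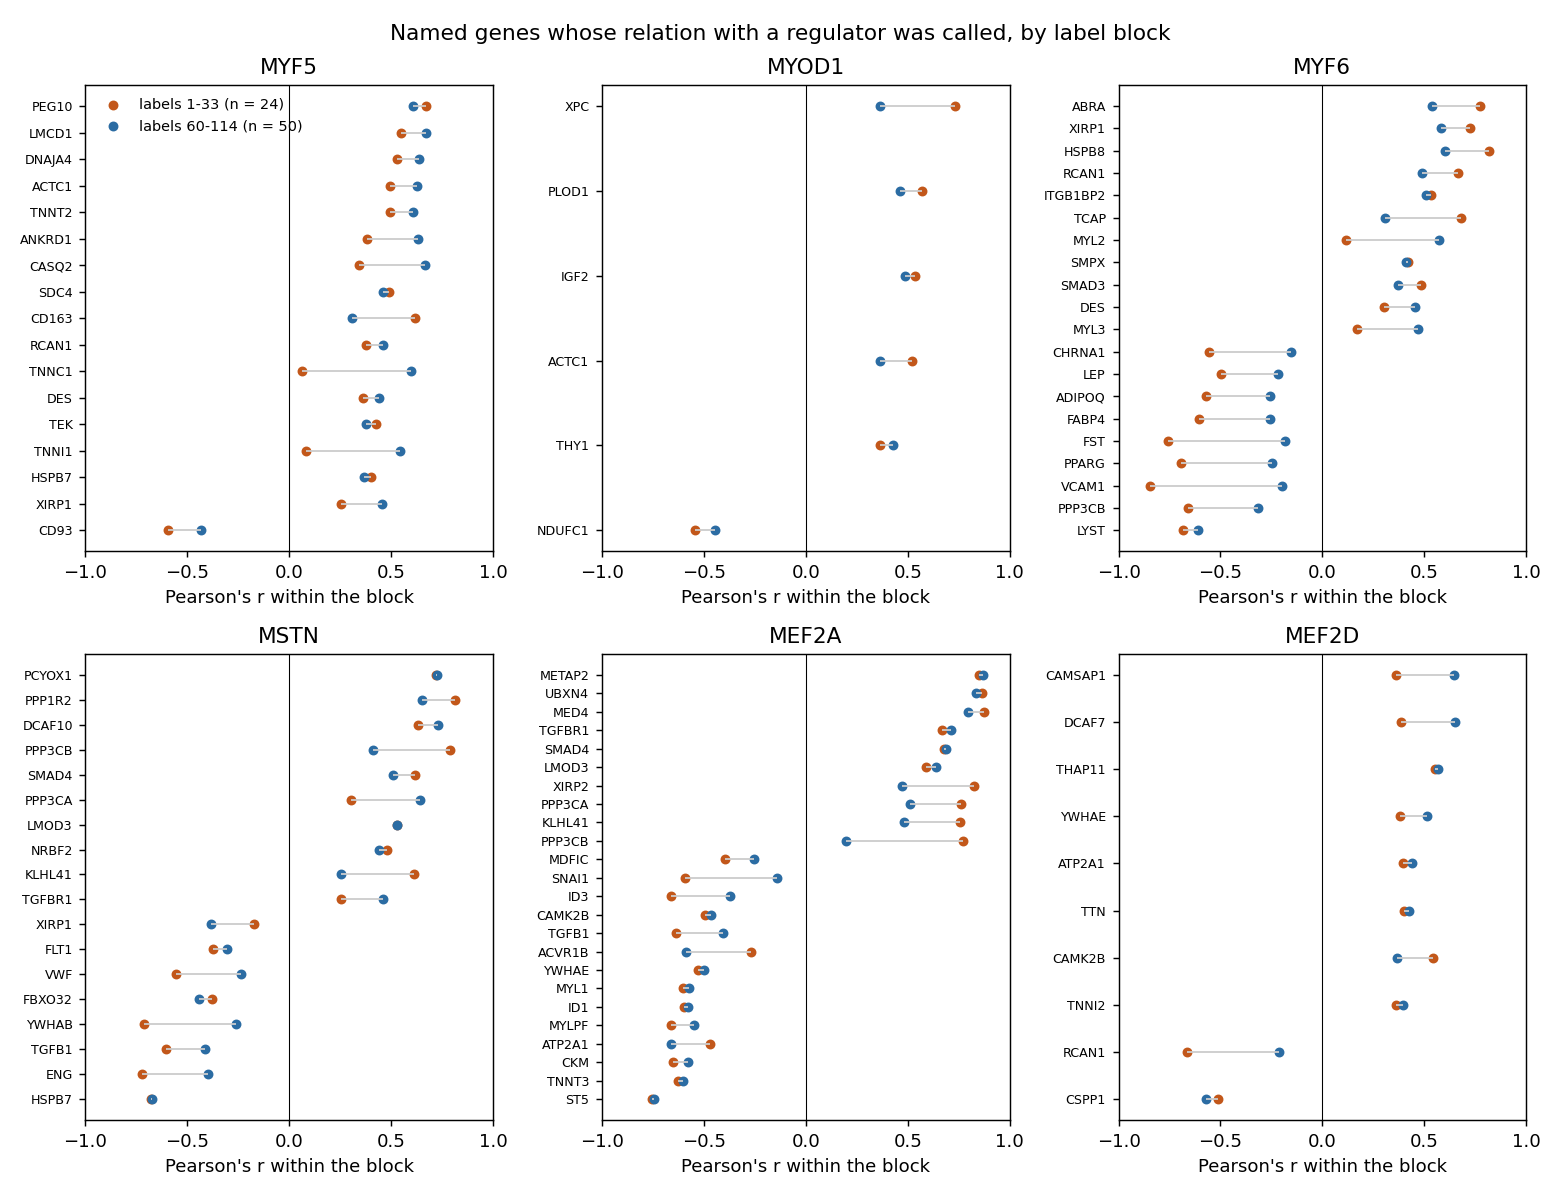
Pearson's r within the 24 animals and within the 50 (x axes) of each named gene (y axes) with each of the 6 regulators (panels), for genes called over both blocks. The genes were chosen by r over both blocks, so points on the same side of 0 are no result; some lie close together, as for METAP2 with MEF2A (0.85 and 0.87), and 47 of the 95 differ by over 0.15, as for VCAM1 with MYF6 (-0.85 and -0.20).

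Of the 95 named relations, 2 differed between the blocks by the test of the difference, both with the first MEF2A probe set, with which 784 of all probe sets had such a difference. MEF2A and 1 of 3 PPP3CB probe sets had r = 0.77 in the 24 animals and 0.20 in the 50 (adjusted p of the difference 0.00156). The other PPP3CB probe sets had r over both blocks of 0.30, called, and -0.15, not called. MEF2A and XIRP2, another Xin protein, had 0.82 and 0.47 (adjusted p of the difference 0.0382). With the second MEF2A probe set, r over both blocks was -0.06 for PPP3CB and 0.27 for XIRP2, neither called. Of the 95 relations, 42 were of genes with several probe sets; for 19 of these another probe set was called in the same direction, for 0 in the opposite one, and for 9 another had the opposite sign. No regulator was called with the 3' to 5' ratio, with which 0.704% of probe sets were called. With the array level 28.5% of probe sets were called, among them the second MSTN probe set (r = 0.29, adjusted p = 0.0414) and MEF2D (r = -0.30, adjusted p = 0.0319).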

How the data were processed

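Total RNA was isolated with TRI Reagent, cleaned, labelled with biotin and hybridised. In GCOS 1.1.1 the authors scaled arrays to a target of 500. After import into Arrays Assist they kept probe sets that MAS5 called present, and took expression values from PLIER. Linear intensities were deposited for 24123 probe sets (124 controls, 34 zeros). Which algorithm made them is not given in the sources read. The arrays were not at 1 level, and each was therefore scaled to a trimmed mean of 500 (2% left out at each end), values under 1 were set to 1, and log2 was taken. This departs from the authors' values, which are kept as an alternative.

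All 23999 probe sets that are not controls were fitted with limma 3.58.1 (R 4.3.3, eBayes with trend) on the block, or on a regulator and the block. P values were adjusted by Benjamini-Hochberg over all of them, and called means an adjusted p under 0.05. Where a gene had 2 probe sets, the one of the higher median was the predictor. For relations, r is that of block-centred values, tested for the 15 pairs by 100000 two-sided permutations within blocks. The scripts were tested on simulated data. The number of arrays limits the precision, and no depth applies. The annotation gives 1 symbol to 10069 probe sets, several to 198 and none to 13732.

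Named genes are the 10 regulators, the 3 most like and the 1 most opposed to each among the brighter 12000 probe sets, and in each list up to 4 genes of the largest r among those called. The members and lists were chosen with earlier results of these data known. Alternatives were adding 16 before log2, quantile normalization, no scaling, the brighter 12000 probe sets, leaving out 2 animals, no block term, terms for RNA integrity and array level, each block alone, the mean z score of a gene's probe sets and Spearman's rho. The principal component as a term was added after seeing the data. Family, sex and slaughter date, which the authors' model held, are not in the labels. Other tools were Python 3.11.15, numpy 2.4.6, pandas 2.3.3, scipy 1.17.1 and matplotlib 3.10.9.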

Additional observations from a re-analysis of the deposited data

Results flagged for a closer look

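Some results stood out because a relation differed between the 24 and the 50 animals by limma's test of the difference itself. For MEF2A, taken by its brighter probe set, 784 of 23998 probe sets had a different relation in the blocks, 533 of them more positive in the 24 animals. Among the named genes these included 1 of 3 probe sets of PPP3CB, a calcineurin subunit (r = 0.77 in the 24 animals and 0.20 in the 50, adjusted p = 0.00156), and XIRP2 (0.82 and 0.47, adjusted p = 0.0382). With the second MEF2A probe set, r over both blocks was -0.06 for PPP3CB (adjusted p = 0.840) and 0.27 for XIRP2 (adjusted p = 0.160). For MYF6 there were 8 such probe sets and for MSTN 4. For MYF5, MYOD1 and MEF2D there were 0 by limma, with 1197, 1188 and 1544 at an unadjusted p under 0.05.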

How the results depend on the processing

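Over 48 repeats of the 10 block differences, 34 kept direction and side of the threshold. As deposited, MEF2A reversed (-0.12 and -0.073), and MYF5, both probe sets of MYOD1 and MYF6, and MEF2D gained a call as lower. Values that were not called reversed for MYF5 (0.092) and MYOD1 (0.042 and 0.15) after quantile normalization, and for the second MYOD1 probe set (0.089) without the 2 animals of the most extreme array level. The count of probe sets higher in the 24 animals, 3366, became 289 as deposited. The 7375 lower became 4810 after quantile normalization, 17936 as deposited and 4397 among the brighter 12000.

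The probe sets called with MYF5, 313, became 511 (quantile), 2449 (as deposited), 0 (24 animals), 111 (50 animals) and 656 (principal component). Those with MYOD1, 229, became 30 (quantile), 42 (as deposited), 573 (brighter 12000), 54 (without 2 animals), 37 (no block term), 4 (RNA integrity and array level), 0 (24 animals), 1 (50 animals) and 2 (component). Those with MYF6, 1285, became 787 (quantile), 177 and 431 (24 and 50 animals). Those with MSTN, 4103, became 6314 (as deposited), 6286 (no block term), 1381 and 2091 (24 and 50 animals) and 477 (component). Those with MEF2A, 7689, became 4148 (RNA integrity and array level), 4232 (24 animals) and 1147 (component). Those with MEF2D, 782, became 1251 (quantile), 6325 (as deposited), 1325 (brighter 12000), 1253 (no block term), 21 (RNA integrity and array level), 0 and 399 (24 and 50 animals) and 400 (component). In the 24 animals, where limma called 0 with MYF5, MYOD1 and MEF2D, 1773, 2702 and 1570 had an unadjusted p under 0.05. Fewer animals enter the fits of single blocks, and the other causes were not tested.

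The 1 pair called in both fits became 2 after quantile normalization, without the 2 animals of extreme array level and without the 2 farthest from the median, 4 as deposited and 0 with the component. As deposited, r reversed for MYF5 with MEF2A (0.24) and MEF2D (0.030), MYOD1 with MSTN (0.10) and MEF2A (0.031), MYF6 with MSTN (0.0069) and MEF2A (0.27) and MEF2A with MEF2D (0.29). With the component it reversed for MSTN with MEF2A (-0.049) and MYOD1 with MSTN (0.25) and MEF2A (0.015). The r of MYF5 with MEF2A, near 0, was 0.0068 with 16 added before log2, 0.020 after quantile normalization, 0.0002 without the 2 animals of extreme level, 0.014 by the mean z score, 0.11 without the 2 farthest and 0.043 by Spearman, and that of MYF6 with MEF2A was 0.0062 by Spearman.

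Of 945 repeats of 95 named relations, 703 kept direction and call, 225 lost the call and 17 reversed. As deposited, those with MEF2A reversed for ID3 (0.055), YWHAE (0.26), CAMK2B (0.26, and 0.060 with no block term), CKM (0.35), ACVR1B (0.10), TNNT3 (0.25), MYLPF (0.45) and MYL1 (0.58, and 0.32 after quantile normalization). With the component, KLHL41 reversed with MSTN (-0.049), and SNAI1 (0.040), MDFIC (0.057), PPP3CB (-0.53), KLHL41 (-0.078), SMAD4 (-0.084) and TGFB1 (0.30) with MEF2A. The reversed value of PPP3CB was itself called (limma adjusted p = 0.000716). So were those of MYLPF and MYL1 as deposited (limma adjusted p = 0.0237 and 0.00103). No paired analysis was possible because the labels number animals of a single group.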
